A study of Mus musculus with 6 samples.

Results

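Expression of 28 genes of cholesterol synthesis, uptake and efflux was followed in heart muscle cells of mice with and without the transcription factor TFEB. The members were taken by gene name from a table of 46450 symbols, and all 28 were found there. They comprised 4 genes that control the sterol-sensing factor SREBP2, 7 of the early mevalonate pathway, 11 of the squalene and sterol steps, 3 of uptake and sterol transfer, and 3 of efflux and esterification. Poly(A) RNA of cardiomyocytes from hearts of C57BL/6 mice aged 3 months was sequenced in 6 libraries, 3 labelled wild type and 3 labelled TFEB-/-. The labels give no further allele, treatment or agent for either group. How the TFEB-/- mice were made, in which cells the gene was deleted, their sex, and whether the libraries stem from separate animals are not given in the sources used here, so p-values measure only the spread between these libraries. The series names lipid metabolism and cell death as its subject, and cholesterol genes are part of the former.

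Cholesterol is built from acetyl-CoA through mevalonate, isoprenoid units, squalene and a series of sterol intermediates. When sterols in the endoplasmic reticulum run low, SCAP carries SREBP2 to the Golgi, where it is cut and released to switch on the synthesis enzymes, while the INSIG proteins hold the complex back when sterols are plentiful. A surplus is exported by ABCA1 and ABCG1, under control of the oxysterol-sensing LXR receptors, or stored as esters made by SOAT1. TFEB is best known as a driver of lysosome and autophagy genes, and lysosomes release the cholesterol that cells take up in lipoproteins.

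Deposited values are CPM (scaled by the authors so that libraries have nearly equal sums), rounded to whole numbers, so each carries a rounding error of up to 0.5 CPM. The number of reads behind a value is unknown and no counting interval can be given. Whether values were scaled by transcript length is not stated, so levels are compared between libraries within a gene and not between genes. Errors after ± are SD over n = 3 libraries. Differences between groups are fitted on log2(CPM + 0.5), TFEB-/- minus wild type, and are called log2 differences. They understate changes of low genes, and their limma p-values are adjusted over all 12437 tested genes. Of the 28 members, all passed the filter of 1 CPM in 3 libraries, 11 had a mean below 5 CPM and 5 a mean below 2 CPM.

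Library sums were 999505 to 999655 CPM, and 12070 to 12664 symbols reached 1 CPM. Tfeb (ENSMUSG00000023990, chromosome 17, 47737030 to 47792419, plus strand, GRCm38) was read at 17, 30 and 23 CPM in the wild-type libraries against 6, 5 and 7 CPM in TFEB-/- (log2 difference −1.85 with SE 0.24, limma adjusted p = 0.0267), a call lost in 6 of 16 alternatives, so the label and the transcript point the same way although some transcript was still read, and which part of the gene was removed is not given. Transcripts of the mitochondrial genome took 30.7% to 44.6% of the wild-type and 22.2% to 30.3% of the TFEB-/- libraries. The median log2 difference of all tested genes was 0.24, and it was 0.01 after each library was divided by its median ratio to the geometric mean of all libraries (median-ratio scaling). Differences of members are therefore also given on that scale. The 7 cardiomyocyte markers summed to 45995 to 63319 CPM in wild type and 55201 to 74371 CPM in TFEB-/-, with Myh6 at 18996 CPM or more in every library.

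In TFEB-/- cardiomyocytes 2 of the 28 cholesterol genes were higher and 0 were lower at a limma adjusted p below 0.05. These were Idi1 and Nsdhl, both enzymes of synthesis, which rose by less than 1 log2 unit from low levels. Among all tested genes 3.92% were higher and 0.523% lower, against 7.14% of the members higher. At an unadjusted limma p below 0.05, 9 members (32.1%) were higher and 0 lower, against 21.1% and 2.3% of all genes. Every TFEB-/- library lay above every wild-type library in 10 members (35.7%, against 21.2% of all genes) and below in 0 (2.28% of all genes). With median-ratio scaling 1 member (3.57%) was called higher and 0 lower, against 3.87% and 1.61% of all genes. On that scale 7 members were separate upward and 0 downward, against 14.3% and 11.8%. The median log2 difference of the members was 0.34, or 0.10 above that of all genes, and 0.11 after median-ratio scaling. The members' share of genes called higher was thus above the background on the deposited scale and just below it on the rescaled one, and these shares carry no test of their own.

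**Figure D1:**
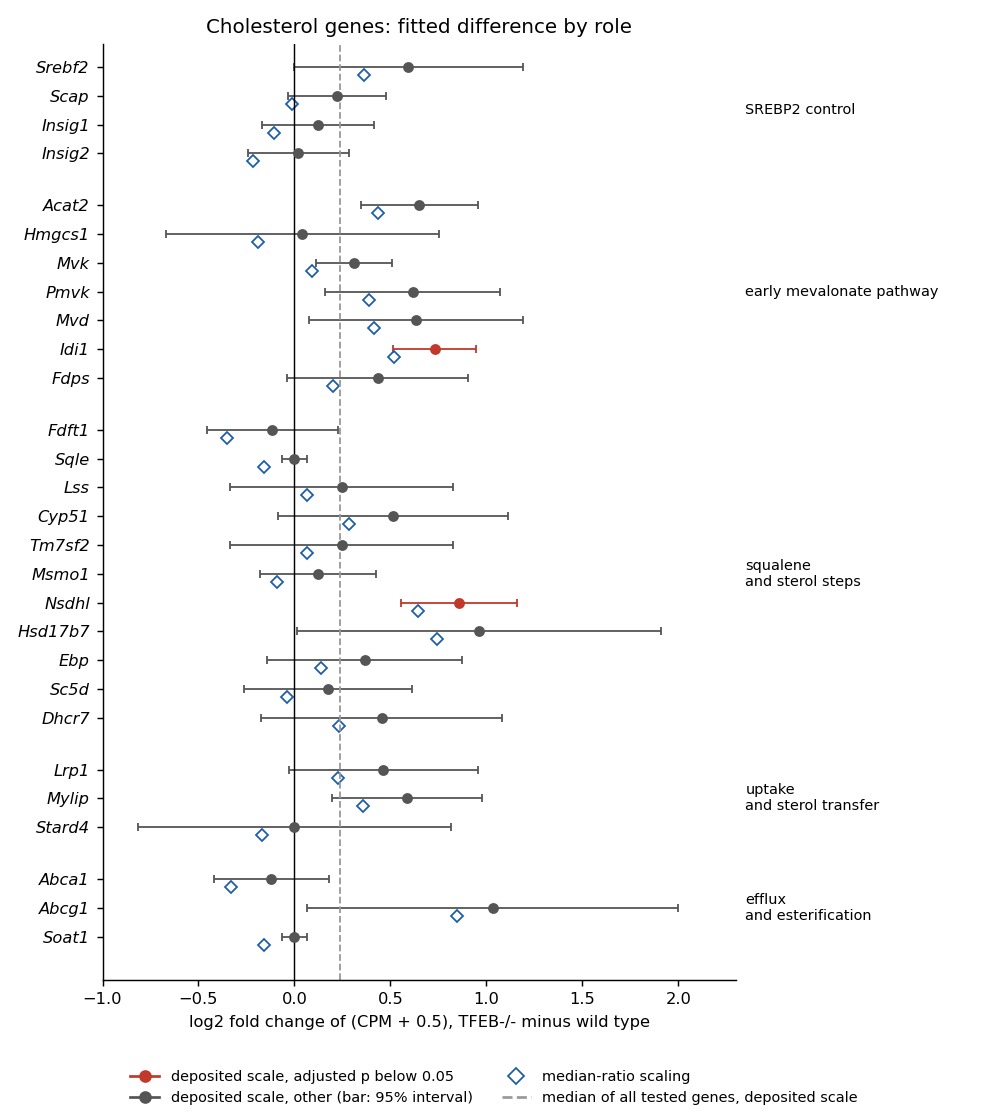
Fitted log2 difference of CPM + 0.5 (horizontal axis, TFEB-/- minus wild type) for the 28 members grouped by role, with 95% intervals from limma on the deposited scale (circles, red where the adjusted p was below 0.05) and the value after median-ratio scaling (open diamonds). Idi1 and Nsdhl are the red points, the dashed line marks the median of all tested genes at 0.24, and each diamond lies to the left of its circle.

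Idi1 and Nsdhl stand at different points of the pathway. Idi1 (ENSMUSG00000058258, chromosome 13, 8885501 to 8892451, plus strand, protein coding) encodes the isomerase that interconverts the isoprenoid units. Nsdhl (ENSMUSG00000031349, chromosome X, 72918557 to 72958514, plus strand, protein coding) encodes a sterol dehydrogenase that helps to remove methyl groups from the ring. To show what lies just before the start of these genes, their 250 bases upstream of the RefSeq start are printed 5′ to 3′ on the gene's strand, beside those of Acat2 and Hmgcs1, which begin the pathway and alone among the 23 members with a RefSeq promoter held the core of the SREBP site. Acat2 was higher in every TFEB-/- library, and in Hmgcs1 the groups overlapped. Capitals mark CACCCCAC (the core of the sterol regulatory element, SRE-1) and CCAAT (the box bound by NF-Y, a partner of SREBPs) on either strand, so that ATTGG is CCAAT on the other strand. The windows are from RefSeq on GRCm38.p6, for Idi1 at chr13:8885356-8885605, plus strand, for Nsdhl at chrX:72918271-72918520, plus strand, for Acat2 at chr17:12960726-12960975, minus strand, and for Hmgcs1 at chr13:119690101-119690350, plus strand. GENCODE places the starts of Idi1 and Acat2 further upstream, inside the stretches shown, so these are not wholly upstream of the gene. The stretches of Nsdhl and Hmgcs1 end before the GENCODE start and could not be checked for strand against its transcripts.
Idi1: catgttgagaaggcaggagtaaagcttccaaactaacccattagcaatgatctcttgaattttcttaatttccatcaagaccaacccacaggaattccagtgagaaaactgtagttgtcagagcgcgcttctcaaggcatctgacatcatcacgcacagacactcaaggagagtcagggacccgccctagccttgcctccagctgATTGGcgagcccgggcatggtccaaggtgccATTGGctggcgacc
Nsdhl: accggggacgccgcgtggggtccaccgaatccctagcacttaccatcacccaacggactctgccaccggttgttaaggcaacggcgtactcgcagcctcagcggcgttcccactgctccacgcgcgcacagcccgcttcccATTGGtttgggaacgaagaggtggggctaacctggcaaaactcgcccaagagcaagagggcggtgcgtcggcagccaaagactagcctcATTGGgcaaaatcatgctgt
Acat2: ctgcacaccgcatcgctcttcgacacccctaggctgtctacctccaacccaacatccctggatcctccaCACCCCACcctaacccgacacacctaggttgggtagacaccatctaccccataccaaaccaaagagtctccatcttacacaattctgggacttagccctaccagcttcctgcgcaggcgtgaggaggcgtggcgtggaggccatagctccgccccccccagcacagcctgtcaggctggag
Hmgcs1: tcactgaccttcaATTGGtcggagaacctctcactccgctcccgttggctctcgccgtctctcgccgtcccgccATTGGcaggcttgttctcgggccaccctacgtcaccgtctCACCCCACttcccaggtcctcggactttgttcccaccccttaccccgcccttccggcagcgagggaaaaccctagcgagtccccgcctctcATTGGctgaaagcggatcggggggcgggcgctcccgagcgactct

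RefSeq promoters, each from 250 bases before to 50 after a start, were at hand for 23 members, with 29 starts. The CCAAT box was present in 19 of the 23 members (82.6%), against 42.9% of the 9399 tested genes with a promoter in the table. By promoter the shares were 65.5% of 29 and 37.4% of 12089. It was found in 9 of the 10 members whose groups were separate and in 10 of the 13 whose groups overlapped, and Scap, Acat2, Lrp1 and Abca1 lacked it in each of their promoters. Nsdhl held 4 boxes in the whole window, 2 of them in the stretch shown, and Mvk held 5. The E-box CACGTG, read by TFEB and many other helix-loop-helix factors, was present in 6 members (26.1%, against 11.8% of tested genes with a promoter): Scap, Insig1, Hsd17b7, Sc5d, Dhcr7 and Abca1. Of these, Hsd17b7 alone was among the 10 with separate groups. The longer TCACGTGA, core of the lysosomal CLEAR element and itself holding an E-box, was found in 0 of the 23 and in 2.18% of tested genes with a promoter. The SRE-1 core was found in 2 (8.70%, against 3.80%). These matches describe letters in a short window, and binding was not measured.

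Among the 4 genes of SREBP2 control the factor itself had the largest difference. Srebf2, which encodes SREBP2 (ENSMUSG00000022463, chromosome 15, 82147181 to 82205379, plus strand), had values of 15, 12 and 11 CPM in the wild-type libraries against 26, 16 and 17 CPM in TFEB-/-. The groups did not overlap, although the lowest TFEB-/- library lay 1 CPM above the highest wild-type library. Its log2 difference of 0.59 (SE 0.23, 95% interval −0.0037 to 1.19) was not past the threshold (limma adjusted p = 0.215), and it was 0.36 after median-ratio scaling (adjusted p = 0.213), where the groups also stayed separate. Without TFEB-/- 1 the log2 difference of Srebf2 was 0.38. Scap, the escort of SREBP2, was at 29, 28 and 25 CPM against 35, 29 and 32 CPM, and the groups met at 29. The retention proteins differed less. Insig1, itself a target of SREBP2, was at 10.3 ± 0.577 and 11.3 ± 1.53 CPM (log2 difference 0.12, 95% interval −0.17 to 0.41). Insig2 was at 33.3 ± 3.79 and 33.7 ± 1.53 CPM (log2 difference 0.02, 95% interval −0.24 to 0.28). Scap, Insig1 and Insig2 had negative values after median-ratio scaling (−0.013, −0.11 and −0.22), each with an adjusted p above 0.2 on both scales.

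The early mevalonate pathway held the most members with separate groups, 5 of 7 against 21.2% of all genes, and 4 of 7 against 14.3% after median-ratio scaling. Its median log2 difference was 0.62, or 0.38 above that of all genes, and 0.39 after median-ratio scaling. Idi1 was at 3, 3 and 3 CPM in the wild-type libraries against 6, 5 and 5 CPM in TFEB-/-, so the closest libraries were 2 rounding steps apart. The means were 3 ± 0 and 5.33 ± 0.577 CPM, a log2 difference of 0.73 (SE 0.08, limma adjusted p = 0.0177). The call was lost with median-ratio scaling (log2 difference 0.52, adjusted p = 0.0782), without mitochondrial transcripts (adjusted p = 0.0889), with noise of the size of the rounding added (adjusted p = 0.0525), and in the fit blocked by replicate number (adjusted p = 0.0897). It was also lost without any 1 wild-type library or TFEB-/- 3 (adjusted p = 0.0537 to 0.0791), and passed in 8 of 16 alternatives. The spread of 0 in wild type is that of rounded values, in which differences below 1 CPM cannot be seen.

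Acat2, the cytosolic thiolase that joins acetyl-CoA units, was at 3, 4 and 4 CPM in the wild-type libraries against 6 CPM in each TFEB-/- library. Its log2 difference was 0.65 (SE 0.12), just outside the threshold (limma adjusted p = 0.0566), and it passed in 1 of 16 alternatives, without wild type 1 (adjusted p = 0.0122). Acat2 has a closely similar gene, Acat3, and how shared reads were divided is not stated, so its values are uncertain. Both mevalonate kinases and the decarboxylase were likewise separate between groups. Pmvk, phosphomevalonate kinase, was at 8, 10 and 7 CPM against 15, 11 and 13 CPM (log2 difference 0.62 with SE 0.18, adjusted p = 0.132). Mvd, which decarboxylates mevalonate diphosphate, was at 4, 4 and 4 CPM against 9, 5 and 6 CPM (log2 difference 0.63 with SE 0.22, adjusted p = 0.178), and its log2 difference was 0.41 without TFEB-/- 1. Mvk, mevalonate kinase, was at 5, 5 and 5 CPM against 7, 6 and 6 CPM (log2 difference 0.31 with SE 0.08, adjusted p = 0.101). In Mvk the groups were 1 rounding step apart, and they overlapped after median-ratio scaling, where its log2 difference was 0.089.

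The other 2 early members overlapped between groups. Fdps, which makes farnesyl diphosphate, was at 12, 15 and 11 CPM against 20, 14 and 18 CPM, so TFEB-/- 2 lay below wild type 2 (log2 difference 0.43 with SE 0.18, limma adjusted p = 0.235). Hmgcs1, the cytosolic HMG-CoA synthase and a classical SREBP2 target, was at 19, 13 and 11 CPM against 19, 12 and 13 CPM, nearly the same values in both groups. Its log2 difference was 0.04 with a 95% interval of −0.67 to 0.75, wide enough to hold the value of Idi1. Summed over the 7 genes, the early pathway stood at 54, 54 and 45 CPM in the wild-type libraries against 82, 59 and 67 CPM in TFEB-/-.

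**Figure D2:**
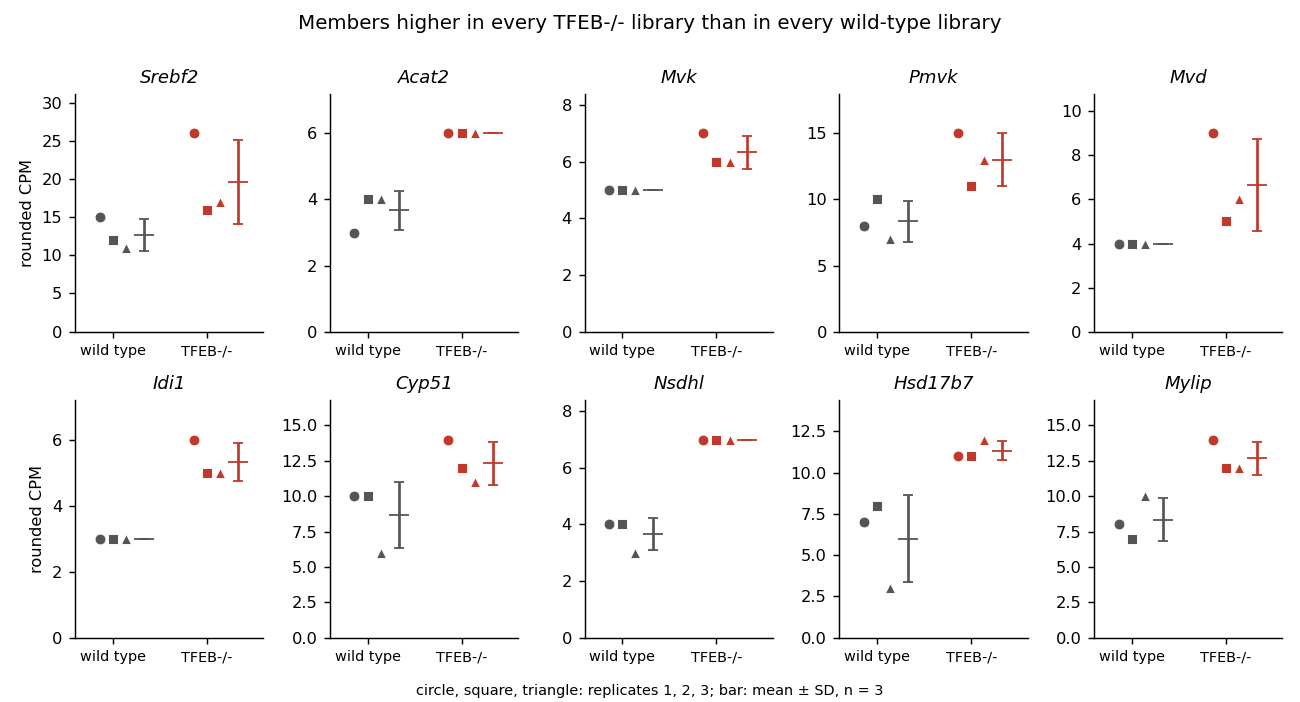
Rounded CPM (vertical axis, from 0) of the 10 members that were higher in every TFEB-/- library (red) than in every wild-type library (grey), with replicates 1, 2 and 3 as circle, square and triangle and the mean ± SD (n = 3) beside them. Nsdhl stands at 7 CPM and Acat2 at 6 CPM in every TFEB-/- library, while Srebf2 and Mvd are spread mainly by TFEB-/- 1, at 26 and 9 CPM.

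From squalene to cholesterol 3 of 11 members were separate upward (27.3%, near the 21.2% of all genes), and 2 after median-ratio scaling (18.2%, against 14.3%). Nsdhl was at 4, 4 and 3 CPM in the wild-type libraries against 7, 7 and 7 CPM in TFEB-/-. Group means were 3.67 ± 0.577 and 7 ± 0 CPM (log2 difference 0.86 with SE 0.12, limma adjusted p = 0.0302), and it was the 1 member still called with median-ratio scaling (log2 difference 0.64). The Nsdhl call passed in 10 of 16 alternatives. It was lost with the replicate block (adjusted p = 0.102) and on leaving out any 1 library except wild type 3 (adjusted p = 0.0551 to 0.131). Hsd17b7, the ketoreductase of the same demethylation complex, had a larger difference with a wider spread. It was at 7, 8 and 3 CPM in the wild-type libraries against 11, 11 and 12 CPM in TFEB-/- (log2 difference 0.96 with SE 0.37, adjusted p = 0.209). The low value of wild type 3 set much of that spread. Without wild type 3 the log2 difference was 0.57.

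Cyp51, the lanosterol demethylase, was at 10, 10 and 6 CPM against 14, 12 and 11 CPM, separate by 1 CPM (log2 difference 0.51 with SE 0.23, limma adjusted p = 0.254), and the groups overlapped after median-ratio scaling. Without wild type 3 the log2 difference of Cyp51 was 0.28. Dhcr7, which reduces 7-dehydrocholesterol, was at 8, 7 and 5 CPM against 12, 8 and 8 CPM, and the groups met at 8. Ebp, the sterol isomerase, was at 9, 10 and 7 CPM against 14, 10 and 10 CPM, and the groups met at 10. Their log2 differences were 0.45 and 0.37 (adjusted p = 0.301 and 0.305), and they were 0.28 and 0.23 without wild type 3 and 0.27 and 0.21 without TFEB-/- 1. The demethylating oxidase Msmo1 (4, 4 and 3 against 4, 4 and 4 CPM) and the desaturase Sc5d (4, 5 and 4 against 6, 5 and 4 CPM) had log2 differences of 0.12 and 0.18, which became −0.089 and −0.040 with median-ratio scaling. For Sc5d the value was 0.048 without TFEB-/- 1, 0.27 without wild type 2 and 0.31 without TFEB-/- 3.

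In none of the steps from squalene synthase to lanosterol were the groups separate. Fdft1, squalene synthase, was at 31, 34 and 33 CPM in the wild-type libraries against 32, 25 and 34 CPM in TFEB-/- (log2 difference −0.12, 95% interval −0.46 to 0.22, limma adjusted p = 0.602). TFEB-/- 2 lay below the wild-type range, and the other two TFEB-/- libraries lay within it. Squalene epoxidase Sqle, often named a rate-limiting step, was listed at 1 CPM in all 6 libraries, where rounding leaves no room to see a change. Lanosterol synthase Lss and the sterol reductase Tm7sf2 were each at 2, 2 and 1 CPM against 2, 2 and 2 CPM (log2 difference 0.25, and 0 without wild type 3). In the annotation 774 exonic bases of Fdft1 lie opposite Ctsb, a cathepsin gene at 341 to 524 CPM, and 532 bases of Tm7sf2 are shared on the same strand with Vps51. Cyp51 has 166 such bases opposite Akap9. Fdps shares 1124 bases on the same strand with Gm43738, which is listed at 0 in every library. Scap, Hmgcs1, Idi1 and Lss have 985, 557, 323 and 381 exonic bases opposite annotated genes that are listed at 0 in every library. How reads of such shared stretches were assigned is not stated, so Fdft1, Tm7sf2, Cyp51, Fdps, Scap, Hmgcs1, Idi1 and Lss are uncertain.

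Uptake and sterol transfer are covered by Lrp1, Mylip and Stard4. Mylip, also called IDOL, is an LXR-induced ubiquitin ligase that sends lipoprotein receptors to degradation. It was at 8, 7 and 10 CPM in the wild-type libraries against 14, 12 and 12 CPM in TFEB-/-, with no overlap (log2 difference 0.59 with SE 0.15, limma adjusted p = 0.109). After median-ratio scaling the groups overlapped (log2 difference 0.36). Lrp1, a large endocytic receptor for lipoprotein remnants, was at 27, 20 and 24 CPM against 26, 35 and 38 CPM, and TFEB-/- 1 lay within the wild-type range (log2 difference 0.46 with SE 0.19, adjusted p = 0.230). The cytosolic sterol carrier Stard4 was at 2, 1 and 1 CPM in both groups.

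In the export and storage genes no member was called by limma, with 1 at an unadjusted p below 0.05. That was Abcg1, the transporter that passes cholesterol to HDL, at 2, 1 and 1 CPM in the wild-type libraries against 5, 3 and 2 CPM in TFEB-/-. TFEB-/- 3 and wild type 1 tied at 2 CPM. Its log2 difference of 1.03 was the largest of the 28 but had a 95% interval of 0.07 to 2.00 (adjusted p = 0.194). Abca1, which loads cholesterol onto apolipoprotein A-I, was at 3, 3 and 4 CPM against 3, 3 and 3 CPM. The esterifying enzyme Soat1 was listed at 1 CPM in every library. Both LXR-controlled transporters thus had values of a few CPM, and their fitted differences had opposite signs, neither past the threshold.

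Abcg1, Abca1, Lrp1 and Mylip are also expressed by macrophages and other cells that a heart cell preparation can hold. The 10 macrophage markers summed to 21, 25 and 32 CPM in wild type and to 47, 54 and 44 CPM in TFEB-/-, without overlap. None was called by limma (2 at an unadjusted p below 0.05), and Lyz2, the most abundant, was at 6, 7 and 9 CPM against 14, 20 and 16 CPM (adjusted p = 0.0544). Fcgr1 was at 0 CPM in 4 libraries and 1 CPM in the others, and was not tested. The 9 tested macrophage markers all had positive log2 differences on both scales, with a median of 0.61, and 0.39 after median-ratio scaling. On each scale 1 of the 9 was separate upward (11.1%, against 21.2% of all genes on the deposited scale and 14.3% on the rescaled one). The 9 pericyte and smooth muscle markers summed to 368 to 458 CPM and to 554 to 565 CPM, and its genes differed in sign. Acta2 (66 to 118 CPM against 161 to 233 CPM) and Abcc9 (125 to 203 CPM against 172 to 247 CPM) carried the sum's difference, and Cspg4 was called higher (10, 12 and 11 against 29, 21 and 21 CPM, adjusted p = 0.0374). Rgs5, Pdgfrb, Kcnj8 and Myh11 had negative log2 differences (−0.28, −0.25, −0.21 and −0.15, none called), and the median of the 9 was 0.08. After median-ratio scaling 2 of the 9 were separate upward and 3 downward, against 14.3% and 11.8% of all genes. The 9 fibroblast markers (109 to 132 CPM and 123 to 169 CPM) and the 10 endothelial markers (331 to 442 CPM and 315 to 374 CPM) overlapped between groups in their sums. Pdgfra of the fibroblast list was called (2, 2 and 2 against 3, 3 and 3 CPM, adjusted p = 0.00336). That call rests on 1 rounding step without spread and passed in 10 of 15 alternatives. It was lost with median-ratio scaling (adjusted p = 0.336). Of the 10 endothelial markers 9 had a negative log2 difference, with a median of −0.17, and none was called. After median-ratio scaling all 10 were negative, and 4 of the 10 were separate downward, against 11.8% of all genes. On that scale Cldn5 (19, 14 and 16 against 12, 11 and 11 CPM) was called lower (log2 difference −0.73, limma adjusted p = 0.0210). Red cell markers (5 genes, Alas2 at 0) summed to 5 to 35 CPM and 6 to 10 CPM, and adipocyte markers (6 genes, Plin1, Lep and Retn at 0) to at most 4 CPM. The part of these cells in the values of Abcg1, Abca1, Lrp1 and Mylip was not tested, and in such samples fewer cells of a type cannot be told apart from less RNA per cell.

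**Figure D3:**
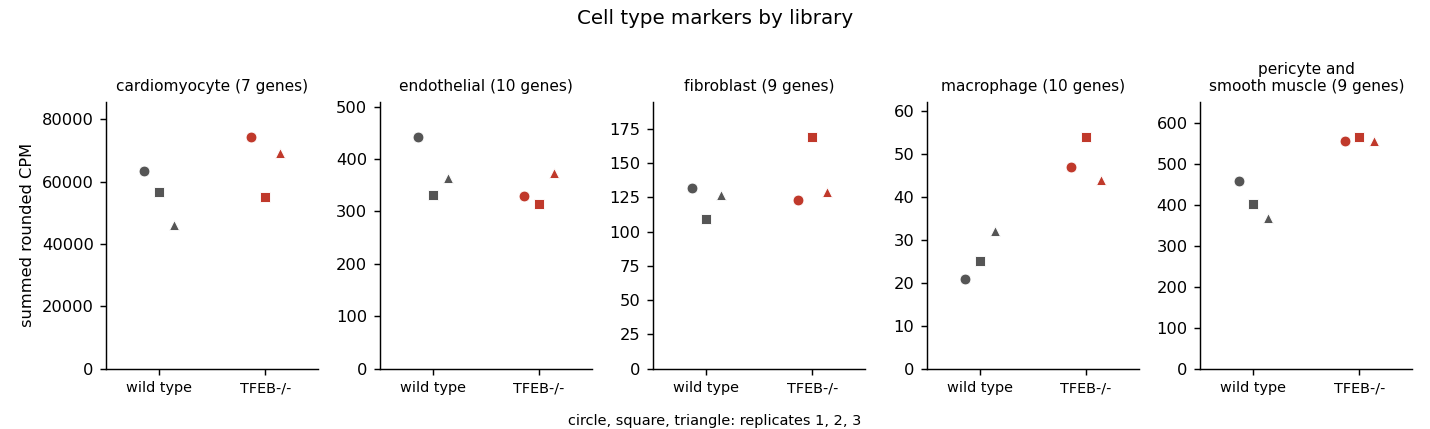
Summed rounded CPM (vertical axis, from 0) of the marker lists of 5 cell types in each wild-type (grey) and TFEB-/- (red) library, with replicates 1, 2 and 3 as circle, square and triangle. The macrophage sums (21 to 32 against 44 to 54 CPM) and the pericyte and smooth muscle sums (368 to 458 against 554 to 565 CPM) do not overlap between groups, and the other sums do. The pericyte and smooth muscle sum is led by Acta2 and Abcc9, while 4 of its 9 genes had negative log2 differences.

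Many members had their highest or lowest value in the same libraries. TFEB-/- 1 held the single highest value of the 6 libraries in 14 of the 28 members, and wild type 3 the single lowest in 14. These were also the libraries with the lowest (22.2%) and the highest (44.6%) share of mitochondrial transcripts. The 18 synthesis enzymes of the early and late steps summed to 136, 141 and 112 CPM in wild type and to 187, 146 and 162 CPM in TFEB-/-, so the groups were separate by 5 CPM between wild type 2 and TFEB-/- 2. With median-ratio scaling the sums were 133.5, 150.7 and 136.9 against 157.8, 143.4 and 152.3, and the groups overlapped. The ratio of the group means was 1.27 on the deposited scale and 1.08 after scaling. On the rescaled values TFEB-/- 1 was highest in 8 members and wild type 3 lowest in 7 and highest in 8. The separation of the sum was thus seen on the deposited scale and not on the rescaled one. Taken one by one, 6 of the 18 enzymes stayed separate upward (33.3%, against 14.3% of all genes), a difference in shares that was not tested.

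**Figure D4:**
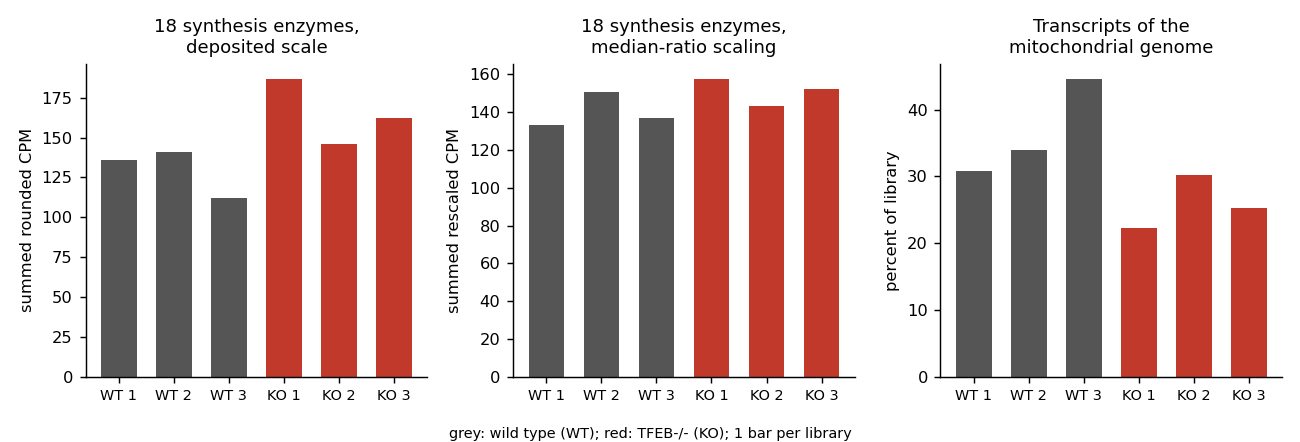
Sum of the 18 cholesterol synthesis enzymes in each library on the deposited scale (left, summed rounded CPM) and after median-ratio scaling (middle, summed rescaled CPM), beside the share of mitochondrial transcripts (right, percent of library), with wild type (WT) in grey and TFEB-/- (KO) in red and 1 bar per library. The left bars of TFEB-/- start at 146 and those of wild type end at 141, the middle bars overlap, and the mitochondrial share is highest in wild type 3.

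Other genes of the pathway were followed in 7 lists with 90 genes, of which 89 were in the table and 80 were tested. Limma called 7 of the 80 higher (8.75%) and 0 lower, with 28 higher and 1 lower at an unadjusted p below 0.05, and every TFEB-/- library lay above every wild-type library in 31 (38.8%). The shares of all genes were 3.92% called higher, 21.1% higher at the unadjusted p and 21.2% separate upward. Sec14l2 and Cyp46a1, counted in the 7 and in the 31, passed the filter only through the TFEB-/- libraries. The median log2 difference of the 80 was 0.30, and 0.08 with median-ratio scaling, on which 18 (22.5%) were separate upward and 12 downward, against 14.3% and 11.8% of all genes. In lysosomal and intracellular sterol transport 1 of 18 tested genes was higher (5.56%). It was Tmem97, a sterol-responsive membrane protein of the endoplasmic reticulum and lysosome, at 2, 2 and 2 CPM in the wild-type libraries against 6, 5 and 5 CPM in TFEB-/- (log2 difference 1.22 with SE 0.08, adjusted p = 0.00261). The call passed in 15 of 16 alternatives and held under median-ratio scaling (adjusted p = 0.0138).

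Of the other sterol synthesis factors 1 of 7 was higher (14.3%, against 3.92% of all genes). It was Sec14l2, a protein known to stimulate squalene epoxidation, listed at 0 in each wild-type library and at 3, 1 and 2 CPM in TFEB-/-, and called in 6 of the 11 alternatives that tested it. Sec14l2 met the filter of 1 CPM in 3 libraries through the TFEB-/- group alone, so only a higher call was possible. In the LXR, efflux and oxysterol list 3 of 12 were higher (25%, against 3.92% of all genes), and each differed by a few rounding steps. Only Cyp46a1 of the 12 was called with median-ratio scaling (8.33%, against 3.87%). The sterol hydroxylase Cyp27a1 was at 9, 10 and 10 CPM against 13, 14 and 13 CPM (log2 difference 0.45, adjusted p = 0.0418), but did not pass once median-ratio scaling was used (log2 difference 0.22, adjusted p = 0.451). Lcat, the plasma esterifying enzyme, was at 1, 1 and 1 against 2, 2 and 2 CPM, and was not called with median-ratio scaling (adjusted p = 0.122). Cyp46a1, a brain sterol hydroxylase, was listed at 0 in wild type, with 1, 1 and 1 CPM in TFEB-/-. Like Sec14l2, Cyp46a1 passed the filter only through TFEB-/- and could only be called higher. The calls of Lcat and Cyp46a1 rest on rounded values without spread, which 164 of the 552 genes called in all had in both groups, 127 of them with a mean below 2 CPM.

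No gene was called in SREBP processing (9 tested), the mevalonate branches (11 tested) or other lipoprotein receptors (10 tested). At an unadjusted limma p below 0.05, 2, 1 and 5 genes were higher (22.2%, 9.09% and 50%, against 21.1% of all genes). Srebf1, which encodes SREBP1, had the smallest p of its list, at 20, 25 and 24 CPM against 39, 34 and 29 CPM (log2 difference 0.55 with SE 0.15, adjusted p = 0.116), without overlap. The farnesyltransferase subunit Fntb was at 12, 11 and 10 CPM against 15, 14 and 13 CPM (adjusted p = 0.129). The sorting receptor Sort1 was at 33, 23 and 18 CPM against 60, 48 and 43 CPM (log2 difference 1.04, adjusted p = 0.105), and was called with median-ratio scaling (adjusted p = 0.0334). In the fatty acid arm of SREBP 2 of 13 were higher (15.4%, against 3.92% of all genes). The desaturase Fads1 was at 6, 5 and 5 CPM against 21, 13 and 16 CPM (limma adjusted p = 0.0246), a call that passed in 11 of 16 alternatives. Scd2 was at 6, 4 and 3 CPM against 51, 23 and 20 CPM, with TFEB-/- 1 far above the others. Its call was near the threshold (adjusted p = 0.0485) and passed in 8 of 16 alternatives. Both were called with median-ratio scaling (adjusted p = 0.00787 and 0.0127). So was Fasn on that scale (25, 25 and 17 against 57, 43 and 41 CPM, limma adjusted p = 0.0146). The arm did not only rise, as 4 of the 13 were separate upward and 4 downward on the rescaled values, against 14.3% and 11.8% of all genes. The steps of the desaturases Fads1 and Scd2 (log2 differences 1.54 and 2.64) were larger than those of Idi1 and Nsdhl, a difference between genes that was not tested.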

How the data were processed

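RNA of 6 libraries (400 ng input, TruSeq Stranded mRNA, paired reads of 75 bases, per the labels) was measured. The authors deposited 1 table of whole-number scores, taken from its name to be kallisto CPM, with sums of 999505 to 999655 per library. The submitters' processing notes name GRCm38 and several tools with no version or role. Further scaling is not stated, and depth by library is unknown.

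Names turned into dates were restored through the Ensembl identifiers, and values were summed by symbol. The test was that of limma 3.58.1 (R 4.3.3) on log2(CPM + 0.5), for symbols with at least 1 CPM in 3 libraries, using eBayes with a trend, two-sided, with Benjamini-Hochberg adjustment over 12437 genes at 0.05. Count models were not used. The fit was tested on simulated data in which only genes with a mean of 5 CPM or more were changed. That test does not cover members with a lower mean, such as Idi1 and Acat2. Because values 1 rounding step apart can pass, a filter of 2 CPM was added after the data were seen, and 16 alternatives were run in all.

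Members and lists were chosen with earlier results of these data known. All members are named, with library values for those called or separate. Of each further list the called genes are named, or else the gene with the smallest p. Promoters came from RefSeq (GRCm38.p6), of which 26 of 29 could be placed in GENCODE M21 transcripts, those on the gene's strand, and those of Hmgcs1, Nsdhl and Sc5d could not be placed.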

Additional observations from a re-analysis of the deposited data

How the results depend on the processing

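Idi1 and Nsdhl kept a positive log2 fold change in all 16 alternatives, and Idi1 passed in 8 and Nsdhl in 10. The number of members called higher was 1 with median-ratio scaling and without mitochondrial transcripts, 0 with the replicate block, and 0 to 1 when 1 library was left out, against 2. The count was 0 without wild type 2 or TFEB-/- 3, and without wild type 1 the 1 member called was Acat2. With mitochondrial transcripts removed 6 members were higher in every TFEB-/- library (Srebf2, Acat2, Pmvk, Idi1, Nsdhl and Hsd17b7) and 4 lower (Insig2, Sqle, Abca1 and Soat1). Of the latter, Sqle and Soat1 have equal rounded values in all libraries, and Insig2 and Abca1 do not. The shares of all genes were not counted with mitochondrial transcripts removed. With median-ratio scaling they were 14.3% upward and 11.8% downward, so these counts are not read as a result about the members. The members' median log2 fold change was 0.11 with median-ratio scaling and 0.13 without mitochondrial transcripts. Signs turned with median-ratio scaling for Scap (−0.013), Insig1 (−0.11), Insig2 (−0.22), Hmgcs1 (−0.19), Msmo1 (−0.089) and Sc5d (−0.040), and without mitochondrial transcripts for Insig1 (−0.10), Insig2 (−0.20), Hmgcs1 (−0.18), Msmo1 (−0.080) and Sc5d (−0.028), none of them past the threshold. With 1 library left out the range was −0.076 to 0.077 for Insig2, −0.16 to 0.26 for Hmgcs1 and −0.20 to 0.015 for Fdft1.

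Genes called higher in all numbered 780 with robust hyperparameters, 159 with the block, 804 with rounding noise (median of 25 draws) and 154 to 406 with 1 library left out. Genes called lower numbered 200 with median-ratio scaling, 188 without mitochondrial transcripts, 26 with the block and 38 to 87 with 1 library left out. Companion genes called higher numbered 11 with a filter of 5 CPM and with robust hyperparameters, 4 with a filter of 2 CPM (added after the data were seen) and with the block, 13 with rounding noise and 2 to 6 with 1 library left out. Tfeb kept its log2 fold change of −1.85 with the replicate block (adjusted p = 0.112), and ranged from −2.05 to −1.65 with 1 library left out (adjusted p = 0.0261 to 0.116). The cause of these changes was not tested. Same-numbered libraries deviated together with correlations of 0.14, −0.05 and 0.09, so the numbers were not taken to pair the samples, and not every library correlated best with its own number.

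Depth by library is unknown, and for members at 1 or 2 CPM (Sqle, Soat1, Stard4, Lss and Tm7sf2) a change below 1 CPM could not be seen.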
